A study of Mus musculus with 44 samples.

Results

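The clustered protocadherin genes were taken as the protein-coding genes whose symbols start with *Pcdha*, *Pcdhb* or *Pcdhg* between 36900000 and 37900000 on mouse chromosome 18 (mm10, GRCm38), as annotated by GENCODE. They numbered 57 of the 21591 protein-coding genes of the 21 chromosomes, with 14 in the alpha, 22 in the beta and 21 in the gamma cluster. CTCF ChIP-seq peak lists were used from 2 libraries of mouse TT2 ESCs (C57BL/6/CBA F1), an embryonic stem cell line kept with serum and LIF. The WT library came from cells of genotype WT, for which the labels state no treatment, and the *Setdb1* KO library came from conditional knockout cells given 800 nM 4-OHT for 4 days to delete *Setdb1* and collected on day 6. Chromatin was crosslinked with formaldehyde, sonicated and precipitated with an antibody to CTCF. The series also holds second CTCF libraries of both conditions, which were not analysed here. Since 1 library was analysed for each condition, neither the spread between replicates nor a p-value for *Setdb1* KO against WT is available, and the intervals below cover counting error only. A CTCF peak list holds no RNA levels, so neither the cell type nor the deletion of *Setdb1* was checked against it.

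Clustered protocadherins are adhesion proteins of the neuronal surface, and each neuron makes its own combination of them. In the alpha and gamma clusters, each variable exon has its own promoter and is spliced to a shared set of constant exons, whereas a beta gene carries its coding sequence in a single exon. The zinc finger protein CTCF binds the promoters and, together with cohesin, connects them with enhancers that lie downstream of the clusters, such as the HS5-1 enhancer downstream of the alpha constant exons. SETDB1 is a histone methyltransferase that deposits H3K9me3, a mark of silent chromatin, and DNA methylation within a CTCF motif is known to reduce CTCF binding.

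The span of 1 Mb was dense in CTCF peaks in both lists. It held 89 of the 44241 WT peaks and 104 of the 59698 *Setdb1* KO peaks. Consecutive windows of 1 Mb over the genome held a median of 12 WT peaks and 17 *Setdb1* KO peaks, and of 2716 windows only 2 held as many WT peaks as the span and only 4 as many *Setdb1* KO peaks. Each peak was placed once by its summit, and of the 104 *Setdb1* KO peaks 50 lay at promoters of members (from 1 kb upstream of the annotated transcription start to the start codon), 38 within variable exons, 1 over the gamma constant exons, 7 on the downstream enhancer sides and 8 elsewhere. For a beta gene, the coding exon was treated as its variable exon. The plot along the span shows every peak with its pileup, the number of fragments covering the summit.

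**Figure D1:**
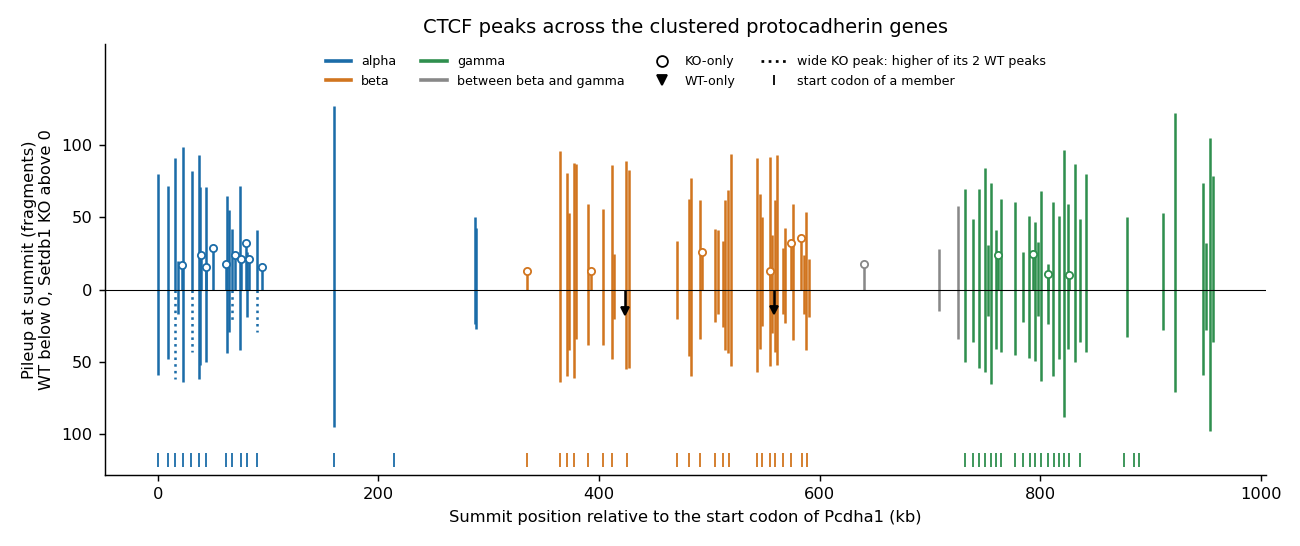
CTCF peaks across the span, with summit position in kb from the start codon of *Pcdha1* on the x axis and pileup in fragments on the y axis, *Setdb1* KO upward and WT downward. Open circles are the 21 KO-only peaks, black triangles the 2 WT-only peaks and dotted lines the higher of the 2 WT peaks under a wide *Setdb1* KO peak; peaks repeat at nearly every member of the 3 clusters, and KO-only peaks are among the low ones.

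CTCF was bound at the promoter or variable exon of nearly every member in WT as well as in *Setdb1* KO ESCs. In WT ESCs 53 of 57 members had a summit there (93.0%, Wilson 95% interval 83.3 to 97.2), and in *Setdb1* KO ESCs 54 of 57 (94.7%, 85.6 to 98.2). Over all protein-coding genes the share with a summit from 1 kb upstream to the end of the first coding exon was 18.6% in WT and 23.1% in *Setdb1* KO ESCs. The windows were not matched for length, and the variable exons of members were 2346 to 8695 bp long. By cluster, 13 of 14 alpha, 21 of 22 beta and 19 of 21 gamma members were bound in WT ESCs, and 13, 22 and 19 in *Setdb1* KO ESCs. The member that differed was *Pcdhb1*, the most upstream beta gene, with a *Setdb1* KO pileup of 13 and no peak in the WT list. Without a peak in either list were *Pcdhac2*, *Pcdhgc4* and *Pcdhgc5*, all of the C type, the divergent isoforms next to the constant exons that are known to be made by most neurons rather than by a choice among promoters.

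Of the 5 C-type members, the other 2 were bound. The alpha isoform *Pcdhac1* had the highest promoter pileup of all members, 95 in WT and 127 in *Setdb1* KO ESCs, a ratio of 1.34 (95% interval 1.02 to 1.76). *Pcdhgc3* had no promoter peak and a single peak 2408 bp downstream of its start codon, with pileups of 33 and 50. Reads with several best alignments were dropped before peak calling, and in the promoters and variable exons of all 5 C-type members 100% of 50-base words occur once in the genome.

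The clusters differed in where within a member CTCF sat. Promoter summits of *Setdb1* KO ESCs lay 102 to 219 bp upstream of the start codon in the alpha cluster (median 174.5 bp, 10 members), 26 to 284 bp in the beta cluster (222 bp, 22 members) and 184 to 283 bp in the gamma cluster (245 bp, 18 members). A second site in the first kb of the variable exon was a feature of the alpha cluster, with 9 of 14 members having a summit 415 to 502 bp downstream of the start codon. Of these 9 peaks 8 overlapped a WT peak, and at 7 of the members the WT list had a summit in the first kb of the exon too, the exception being *Pcdha1*. The WT list also had early exon summits at *Pcdha3* (445 bp, 26 fragments) and *Pcdha9* (509 bp, 16 fragments). At both, the overlapping *Setdb1* KO peak had its summit at the promoter. In the beta cluster, the second site was near the far end of the coding sequence, 2022 to 2207 bp downstream of the start codon in 17 of 22 members, 15 of them shared with WT. Gamma members mostly had the promoter site alone, since 18 of 21 had a promoter peak and 6 an exon peak, 4 of these between 2086 and 2408 bp. The spacing between both summits of a member was therefore 595 to 661 bp at 6 alpha members with separate promoter and early exon peaks, and 2230 to 2426 bp at 17 beta members.

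**Figure D2:**
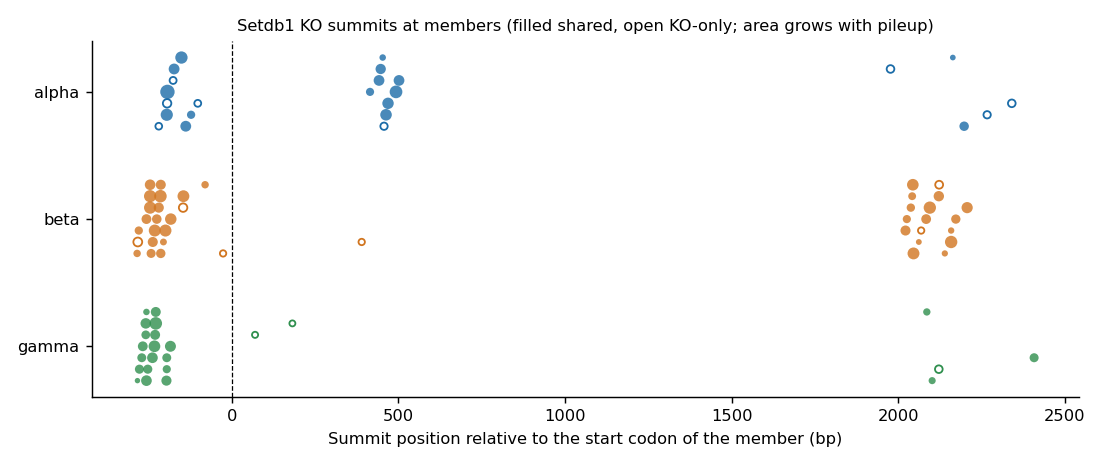
Position of each *Setdb1* KO summit relative to the start codon of its member (x axis, bp) in the 3 clusters (y axis). Filled points are shared peaks, open points KO-only peaks, and the area of a point grows with its pileup; all clusters share the promoter column at 26 to 284 bp upstream, the alpha cluster alone has a column at 415 to 502 bp downstream with 9 summits, and the beta cluster has 17 summits at 2022 to 2207 bp.

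In the alpha cluster, the strongest site was at the promoter in some members and in the exon in others. *Pcdha4* had its main peak in the exon, with pileups of 64 in WT and 99 in *Setdb1* KO ESCs, and its promoter had a peak of 17 in *Setdb1* KO ESCs alone. *Pcdha6* had both, with 62 and 93 fragments at the promoter and 52 and 71 in the exon. *Pcdha7* resembled *Pcdha4*, with 50 and 71 fragments in the exon and a KO-only promoter peak of 16. At *Pcdha8* there were 3 sites. Its early exon had pileups of 44 in WT and 65 in *Setdb1* KO ESCs, and its exon end 29 and 55. Its promoter held a KO-only peak of 18. In *Pcdha2* only the promoter was bound, with 48 and 72 fragments. *Pcdha10* showed the opposite of *Pcdha4*, with 42 and 72 fragments at the promoter and a KO-only peak of 21 in the exon.

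At 4 alpha members, a single wide *Setdb1* KO peak ran over separate WT peaks at the promoter and in the exon. These were *Pcdha5* (82 in *Setdb1* KO against 40 and 43 in WT ESCs), *Pcdha3* (91 against 62 and 26), *Pcdha9* (42 against 22 and 16) and *Pcdha12* (41 against 28 and 29). Their *Setdb1* KO peaks were 903 to 1472 bp wide, against a median of 385 bp in the whole list. At *Pcdha1* the *Setdb1* KO peak (80 fragments) had its summit in the exon and the WT peak that it overlapped (59 fragments) had its summit 648 bp away, at the promoter. Such members have both sites, so their ratios are either missing or set between different summits. The lowest alpha member with any peak was *Pcdha11*, with 19 fragments in WT and 26 in *Setdb1* KO ESCs in the early exon and KO-only peaks of 32 at the promoter and 21 at the exon end.

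All 22 beta members had a promoter peak in *Setdb1* KO ESCs and 19 had one in WT ESCs. The highest beta pileups in *Setdb1* KO ESCs were 96 at the promoter of *Pcdhb2* (64 in WT), 94 in the exon of *Pcdhb14* (53 in WT), 93 in the exon of *Pcdhb18* (52 in WT) and 92 at the promoter of *Pcdhb17* (53 in WT). After *Pcdhb1*, the lowest were *Pcdhb9* with 20 and 34 fragments, *Pcdhb21* with a KO-only promoter peak of 36, and *Pcdhb12* with 22 and 42. Of 17 beta members with a promoter and a late exon peak, the promoter was the higher in 11 and the exon in 6, among them *Pcdhb13*, *Pcdhb14*, *Pcdhb18* and *Pcdhb20*. The exon of *Pcdhb4* differed most between the libraries of all shared sites in the span, with 34 fragments in WT and 87 in *Setdb1* KO ESCs (ratio 2.56, 1.70 to 3.92), whereas its promoter had 61 and 88 (1.44, 1.03 to 2.03). A like difference stood in the exon of *Pcdhb12*, with 17 and 41 fragments (2.41, 1.34 to 4.53).

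All 18 *Pcdhga* and *Pcdhgb* members had a promoter peak in both libraries. *Pcdhgb7* was highest with 88 fragments in WT and 97 in *Setdb1* KO ESCs, followed in *Setdb1* KO ESCs by *Pcdhgb1* with 57 and 84, *Pcdhga4* with 65 and 74, and *Pcdhga1* (50 and 70) with *Pcdhga3* (54 and 70). At the low end, *Pcdhga9* had 24 fragments in WT and 18 in *Setdb1* KO ESCs (0.750, 0.384 to 1.44) and *Pcdhga7* had 22 and 26. The *Pcdhga9* and *Pcdhga8* promoters (49 and 47 fragments) were the gamma promoters with a lower pileup in *Setdb1* KO than in WT ESCs, and *Pcdhgb2* had 41 in both. Each of these intervals includes 1. The 6 *Pcdhgb* promoters had a median *Setdb1* KO pileup of 64.5 and the 12 *Pcdhga* promoters of 55, with ranges of 41 to 97 and 18 to 74 that overlap.

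**Figure D3:**
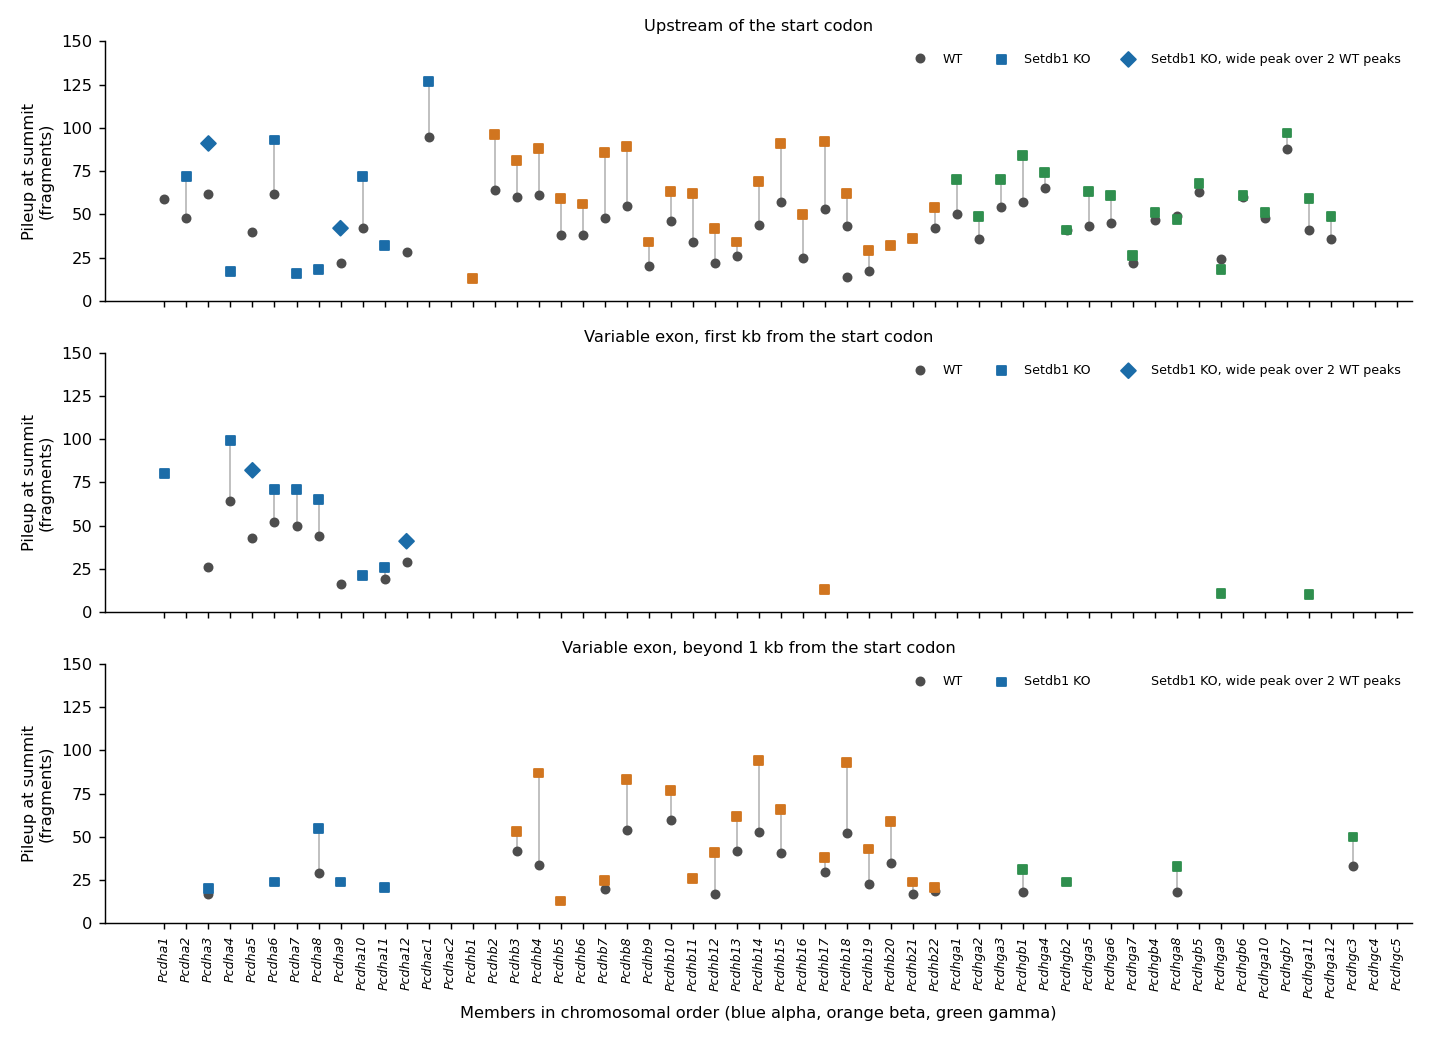
Pileup at the summit (y axis, fragments) for each of the 57 members in chromosomal order (x axis), in 3 panels for sites upstream of the start codon, in the first kb of the variable exon and beyond it. Grey circles are WT, coloured squares *Setdb1* KO and diamonds wide *Setdb1* KO peaks over 2 WT peaks; the promoter panel is filled from *Pcdhb1* to *Pcdhga12*, the early exon panel is filled mainly in the alpha cluster, and the late exon panel mainly in the beta cluster.

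A *Setdb1* KO peak that overlapped no WT peak by at least 1 bp was called KO-only, and a WT peak that overlapped no *Setdb1* KO peak WT-only. In the span, 21 of 104 *Setdb1* KO peaks were KO-only (20.2%, 13.6 to 28.9), against 28.8% of the whole list, and 2 of 89 WT peaks were WT-only, against 3.22%. At promoters and variable exons together, 8 of 24 alpha peaks were KO-only (33.3%, 17.97 to 53.3), 6 of 40 beta peaks (15.0%, 7.06 to 29.1) and 3 of 24 gamma peaks (12.5%, 4.34 to 31.0). The intervals of the 3 clusters overlap, and the share of the whole list lies inside each of them. At promoters alone, 4 of 10 alpha, 3 of 22 beta and 0 of 18 gamma peaks were KO-only, and 0 of 18 has an upper bound of 17.6%. The 10 alpha peaks leave out the promoters of *Pcdha1*, *Pcdha5* and *Pcdha12*. There a shared *Setdb1* KO peak covered the WT promoter summit, but it was placed in the exon by its own summit. Both lists were also cut to equal length by q. At promoters and variable exons, 4 of 19 alpha, 3 of 36 beta and 1 of 21 gamma peaks then remained KO-only. In the whole list 11.7% did. A KO-only peak was also required to lie over 1 kb from any WT peak. This left 3 of 24 alpha, 5 of 40 beta and 1 of 24 gamma peaks, against 26.1% of the whole list. Under a reciprocal overlap of 50%, these were 10 of 24, 7 of 40 and 6 of 24, against 34.1% of the whole list. WT-only peaks of the span ranged from 0 to 12 over these and the other settings tried.

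KO-only peaks were mostly low and mostly second sites of members that were bound in WT as well. Their pileups ran from 10 to 36 with a median of 21, whereas the shared peaks of the span had a median *Setdb1* KO pileup of 62. Of the 21, 10 would be at or under the lowest WT pileup listed in the span, 14, after division by the genome-wide ratio given below. Low pileups follow partly from the definition, since a KO-only peak had to be absent from the WT list. The pileups were not set beside those of KO-only peaks in the whole list. The 16 members with a KO-only peak included 1, *Pcdhb1*, for which it was the sole peak. KO-only promoter peaks stood at *Pcdha4*, *Pcdha7*, *Pcdha8*, *Pcdha11*, *Pcdhb1*, *Pcdhb20* and *Pcdhb21*, and the highest were 36 at *Pcdhb21* and 32 at both *Pcdhb20* and *Pcdha11*. KO-only exon peaks stood at *Pcdha6*, *Pcdha9*, *Pcdha10*, *Pcdha11*, *Pcdhb5*, *Pcdhb11*, *Pcdhb17*, *Pcdhgb2*, *Pcdhga9* and *Pcdhga11*, from 10 fragments at *Pcdhga11* to 26 at *Pcdhb11*. The other 4 KO-only peaks lay elsewhere in the span, the highest with 29 fragments near the start of the pseudogene *Gm36858*. Both WT-only peaks were in the beta cluster, with 14 fragments 677 bp upstream of the start codon of *Pcdhb18* and 15 fragments outside any member.

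Pileups at shared sites were compared as the ratio of *Setdb1* KO to WT wherever exactly 1 WT peak overlapped exactly 1 *Setdb1* KO peak. Over the genome, 41876 such sites had a median ratio of 1.36, with quartiles of 1.17 and 1.61, while the tag numbers solved from the lists differed by a ratio of 1.01. The genome-wide ratio is therefore the level against which members were read. The 79 sites of the span had a median of 1.47, and 53 were above 1.36. For 2 of them the interval lay above 1.36, and for 0 below it, against 5.49% and 2.28% of sites over the genome. These were the exon of *Pcdhb4* and the most downstream site of the gamma enhancer side. Both were called by pileup alone.

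Beta and gamma promoters stood on different sides of the genome-wide median by pileup. The 19 beta promoters had ratios of 1.29 to 2.00 with a median of 1.57, and 16 were above 1.36. Summed over these promoters, the pileup was 793 in WT and 1237 in *Setdb1* KO ESCs, a ratio of 1.56 (1.43 to 1.71). The 18 gamma promoters had ratios of 0.750 to 1.47 with a median of 1.16, and 6 were above 1.36. Their sums were 869 and 1039, a ratio of 1.196 (1.09 to 1.31). The 2 sum intervals do not overlap, but they cover counting error only, and how far libraries of the same condition differ was not measured here. The 4 alpha promoters with a paired peak had a median of 1.5 (1.34 to 1.71). Other protein-coding promoters of the genome had a median of 1.26 (1686 sites), and shared sites with WT pileups in the middle range of the beta promoters had 1.39, of the gamma promoters 1.36.

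The side on which the beta promoters fell changed with the background. Divided by the local background, as the authors' fold enrichment is, the beta promoters had a median ratio of 1.21 against 1.31 over the genome, the alpha promoters 1.195 and the gamma promoters 1.10. The background that MACS2 set at these promoters was higher in *Setdb1* KO than in WT ESCs, by a median ratio of 1.35 at beta, 1.42 at alpha and 1.11 at gamma promoters, against 1.05 over the genome. On this scale all 3 clusters lay below the genome-wide median, with gamma still the lowest. Other protein-coding promoters of the genome lay below it too, with a median ratio of 1.21. Beta and alpha promoters were near that level, and gamma promoters were under it. The part of the background in the pileup differences was not tested.

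**Figure D4:**
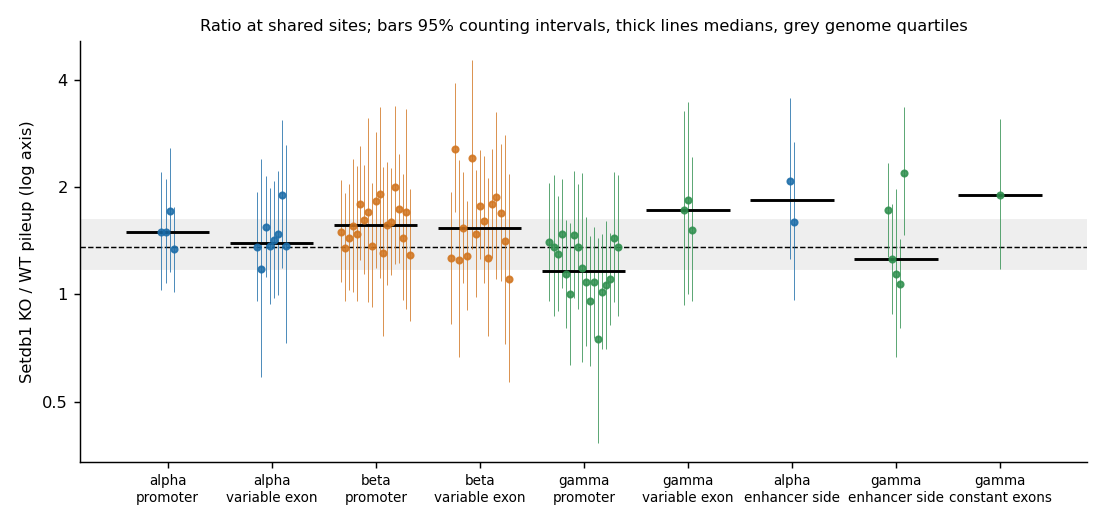
Ratio of *Setdb1* KO to WT pileup at shared sites (y axis, log scale) by cluster and place (x axis). Points are sites with exact 95% counting intervals, thick lines are medians, the dashed line is the genome-wide median of 1.36 and the grey band its quartiles of 1.17 and 1.61; the beta promoters lie around 1.57 and the gamma promoters around 1.16.

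Within the gamma cluster, low pileup ratios followed one another along the chromosome. From *Pcdhga7* to *Pcdhgb7*, 8 neighbouring promoters had ratios of 0.750 to 1.18 with a median of 1.07, and their sums were 401 fragments in WT and 419 in *Setdb1* KO ESCs (1.04, 0.909 to 1.201). The other 10 gamma promoters had a median of 1.36, from 1.00 at *Pcdhgb2* to 1.47 at *Pcdhgb1*, with sums of 468 and 620 (1.32, 1.17 to 1.497). This run was chosen after its values were seen, so the contrast of both sets is a description. By fold enrichment the run was not unbroken. *Pcdhgb4* inside it had fold enrichments of 8.85 in WT and 16.0 in *Setdb1* KO ESCs, and *Pcdhgb2* outside it 11.5 and 8.63. The single paired exon site inside the run, that of *Pcdhga8*, had 18 and 33 fragments (1.83, 1.00 to 3.46). Its interval includes the median of the run, but not the ratios at the promoters of *Pcdhga8* (0.959) and *Pcdhga9* (0.750).

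In the variable exons, median pileup ratios lay above the genome-wide 1.36 in each cluster, but the beta exons lay below the genome-wide median of the fold enrichment ratio. The 8 paired alpha exon sites had a median of 1.39 (1.18 to 1.90), the 15 beta exon sites 1.54 (1.11 to 2.56) and the 3 gamma exon sites 1.72. The alpha sites include that of *Pcdha1* (1.36), where the WT summit was at the promoter. Summed over the beta exon sites, the ratio was 1.61 (1.44 to 1.79). The first coding exons of other genes (273 sites) had a ratio of sums of 1.28 and a median of 1.27. By fold enrichment, the beta exon sites had a median ratio of 1.23, with a background ratio of 1.17. The median was 1.31 over the genome and 1.23 at the first coding exons of other genes. The alpha exon sites had 1.44, with a background ratio of 0.968. The 3 gamma exon sites had 2.82, but their background was lower in *Setdb1* KO than in WT ESCs, by a median ratio of 0.552. Reads from the exons are less often unique than those from the promoters. The median share of 50-base words that occur once was 85.2% for alpha variable exons, with the lowest in *Pcdha6* (73.4%), 96.3% for beta and 99.4% for gamma, but 88.2% in *Pcdhgb* exons against 99.7% in *Pcdhga* exons. Promoters had medians of 100% in all 3 clusters. The part of uniqueness in which members had a peak, and in the pileups, was not tested. Around exon summits the share fell as low as 50%, and reads from the repeated words there are not counted in the pileup.

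Downstream of the clusters, all peaks were shared. On the alpha side, 29.8 and 30.8 kb downstream of the constant exons, a pair of sites 945 bp apart had pileups of 24 in WT and 50 in *Setdb1* KO ESCs (2.08, 1.26 to 3.54) and of 27 and 43 (1.59, 0.962 to 2.68). The place of the HS5-1 enhancer is not annotated in the files, so neither site was assigned to it. In the gamma constant exons, 1 site had 28 and 53 fragments (1.89, 1.18 to 3.11), and the alpha constant exons had no peak in either list. The gamma side held 5 sites between 10.4 and 45.3 kb downstream of the constant exons, and their values were spread widely. The site nearest the constant exons had 71 and 122 fragments (1.72, 1.27 to 2.34), and the highest WT site had 98 and 105 (1.07, 0.806 to 1.43). The most downstream had 36 and 79 (2.19, 1.46 to 3.35), and the 2 between them had 59 and 74 (1.25) and 28 and 32 (1.14). By fold enrichment the order of these sites changed. The most downstream had 8.96 in WT and 11.8 in *Setdb1* KO ESCs, with backgrounds of 3.13 and 5.80. The site with 59 and 74 fragments had fold enrichments of 11.1 and 20.6, and the highest WT site 27.1 and 18.2. The 5 sites had a median ratio of 1.25 by pileup and 1.56 by fold enrichment.

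Other genes start within the span. A peak lay at the start of *Slc25a2*, which encodes a mitochondrial ornithine carrier, with 15 fragments in WT and 28 in *Setdb1* KO ESCs (1.87, 0.964 to 3.76). *Taf7*, which encodes a subunit of the general transcription factor TFIID, had no peak within 1 kb of its start in either list. The predicted genes *Gm42416* and *Gm37013* start within 1 kb of summits already counted under *Pcdha4* and *Pcdha6*, and *Gm37388* starts near none. The noncoding *3222401L13Rik* had 34 and 58 (1.71, 1.10 to 2.69). *Pcdhgb8*, annotated as a polymorphic pseudogene and so not a member, had 50 and 87 at its start (1.74, 1.22 to 2.52), above all 18 gamma promoters in ratio. A site between *Pcdhga12* and *Pcdhgc3* had 43 and 80 (1.86, 1.27 to 2.76).

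The CTCF motif was searched within 50 bp of each summit with a matrix built from 1000 strong shared peaks on other chromosomes, and strands are given relative to the genes, all of which are on the + strand. Promoter sites had weak matches of a single orientation. At the threshold that 1% of control windows pass (the 99th percentile), 1 of 50 promoter peaks had a motif, at *Pcdhb16*, against 56.2% of all *Setdb1* KO peaks. At the 95th percentile, 31 of 50 had one, against 74.7%, and all 31 were on the + strand, whereas 50.4% of all motifs at that threshold were on it. By cluster these were 8 of 10 alpha, 19 of 22 beta and 4 of 18 gamma promoters. Without a threshold, the best match was on the + strand at 47 of 50 promoters.

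Exon and enhancer sites differed from the promoters in strength and strand. In the alpha early exons, 7 of 9 sites passed the 99th percentile, all on the + strand, so that promoter and exon motifs of a member point the same way. In the beta late exons 0 of 17 passed it and 2 passed the 95th percentile, both on the opposite strand. On the enhancer sides, 5 of 7 sites passed the 99th percentile and 6 the 95th, all on the opposite strand to the genes, as was the motif of the gamma constant exons. The promoter motifs and the enhancer motifs were therefore in convergent orientation.

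**Figure D5:**
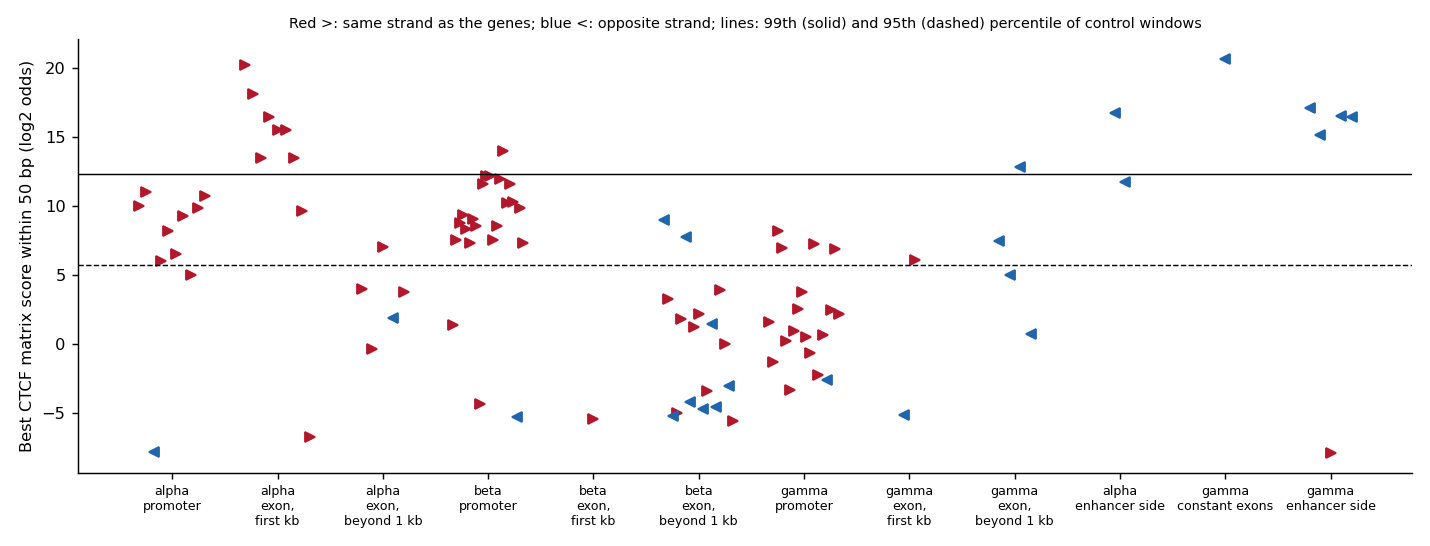
Best CTCF matrix score within 50 bp of each *Setdb1* KO summit (y axis, log2 odds) by cluster and place (x axis), with red triangles on the strand of the genes and blue triangles on the opposite strand. The solid line is the 99th and the dashed line the 95th percentile of control windows; promoters of the alpha and beta clusters lie mostly between both lines and in red, early alpha exons mostly above in red, and enhancer sides mostly above in blue.

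The promoter motifs carried a CpG. Of the 31 promoter peaks with a match at the 95th percentile, 30 had a CpG at position 12 of the 14-base core, counted from 1 at its 5′ end, against 32.03% of all *Setdb1* KO peaks with such a match. Within 50 bp on each side, promoter summits had a median of 3 CpG dinucleotides, against 1 over all peaks. Members could also be scored without regard to peaks, in the 400 bp upstream of the start codon. At the 95th percentile 38 of 57 members had a motif there, 37 of them on the + strand, against 27.8% of all protein-coding genes. They were 12 of 14 alpha, 21 of 22 beta and 5 of 21 gamma members, although 18 gamma promoters had a peak. Of the unbound members, *Pcdhac2* had a match and *Pcdhgc4* and *Pcdhgc5* had none.

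Protocadherin genes outside the clusters, single genes spread over the genome, gave a comparison family. Of 12 such genes, 6 had a summit at the promoter or first exon in WT and 7 in *Setdb1* KO ESCs, where the shares of all protein-coding genes were 18.6% and 23.1%. Window lengths were not matched here either. Within the genes and 10 kb on each side, 22 of 52 *Setdb1* KO peaks were KO-only (42.3%, against 28.8% of the whole list), and the most were at *Pcdh15* with 7 and at *Pcdh7*, *Pcdh9* and *Pcdh11x* with 3 each. The genes with the most KO-only peaks are long, and *Pcdh15*, which encodes a tip-link protein of hair cells, held 20 of the 52 peaks. Of 16 genes known to act on the clusters, among them CTCF, cohesin subunits and DNA methyltransferases, 6 had such a summit in both lists. Near them 15 of 49 *Setdb1* KO peaks were KO-only (30.6%, near the 28.8% of the whole list), with 3 each at *Smc3*, a cohesin subunit, and at *Rest*, a repressor of neuronal genes, and 2 each at *Nipbl*, the cohesin loader, and *Dnmt3a*, a DNA methyltransferase. *Setdb1* itself had 3 peaks in each list and 0 KO-only peaks.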

How the data were processed

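CTCF ChIP-seq peak lists of 1 WT and 1 *Setdb1* KO library were used, 2 of the 44 samples of the series; the other samples were not analysed here. Per the study's methods and the submitters' processing notes, the authors aligned reads to mm10 with Bowtie 1.2, keeping uniquely aligned reads, removed duplicates with Picard and called peaks per library with MACS2 2.1.0. The deposited lists give the authors' fold enrichment, a ratio of pileup to local background with a pseudocount of 1 on each. The authors' p and q are deposited as −log10 values. The deposited score is 10 times the −log10 q as a whole number, and a further column locates the summit within the peak.

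From fold enrichment and the Poisson p, a whole-number pileup and its background could be recovered for 100% of peaks (tolerance 0.001 on −log10 p). Tag totals are not in the lists, and their ratio was solved from the lowest backgrounds and shortest peaks. Ratios have exact Clopper-Pearson and shares Wilson 95% intervals. Neighbouring peaks and related promoters are not independent, so intervals cover counting error only. Gene models were from GENCODE vM21, which gives the symbol *Pcdha11* to 2 genes; the first was called *Pcdha10* after RefSeq (GRCm38.p6), whose *Pcdha10* starts at the same start codon. Enhancer sides ran from the alpha constant exons to the first beta promoter and from the gamma constant exons to the end of the span. CTCF motifs were scored with thresholds from windows 1 kb to the left of summits. Uniqueness was the share of 50-base words found once in the genome on both strands. The recovered pileups, ratio intervals, motif strands and uniqueness were each checked on simulated input. The tools were numpy 2.4.6, numba 0.67.0, scipy 1.17.1, pysam 0.24.0, pandas 2.3.3 and matplotlib 3.10.9 under Python 3.11.15.

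The members, gene lists and comparisons were chosen with earlier results of these data known. Named in the text were, per cluster, the 4 members with the highest and the 4 with the lowest *Setdb1* KO pileup, members with a KO-only or WT-only peak or with none, C-type members, sites whose interval missed the genome-wide median, peaks of constant exons and enhancer sides, other genes starting in the span (of noncoding genes and pseudogenes, only those whose peak is not placed at a member), and up to 4 genes of each comparison list with the most KO-only peaks. *Pcdha1*, *Pcdha2*, *Pcdha5*, *Pcdhb13*, *Pcdhb16*, *Pcdhga8*, *Pcdhgb4*, the site between *Pcdhga12* and *Pcdhgc3*, and the gamma run were added after their values were seen.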

Additional observations from a re-analysis of the deposited data

How the results depend on the processing

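Of 89 values recomputed under alternative settings, 69 kept their direction and size class, 19 moved and 1 reversed. The 69 include the promoter ratios of each cluster after division by the ratio of tag numbers. Those could not change, since the genome-wide median was divided by the same number. The ratio of fold enrichments in place of pileups reversed the beta promoters, from 1.15 to 0.920 times the genome-wide median, and moved the alpha promoters from 1.10 to 0.910. KO-only peaks at promoters or variable exons became 6 of 24 in gamma under a reciprocal overlap of 50% (34.1% of the whole list). Where no WT peak lay within 1 kb, they were 3 of 24 in alpha and 1 of 24 in gamma (26.1%). With lists of equal length, they were 4 of 19 in alpha, 3 of 36 in beta and 1 of 21 in gamma (11.7%). With *Setdb1* KO pileups scaled by the genome-wide ratio and peaks kept from a −log10 p of 10 upward, alpha had 4 of 19 (18.8%). WT-only peaks of the span, 2 as reported, were 12 under the reciprocal overlap, 8 with summits within 100 bp, 0 with no peak within 1 kb, 1 with a −log10 q of at least 5, 0 with a fold enrichment of at least 5 and 5 with lists of equal length. Motifs were called at 31 promoter and 14 variable exon peaks at the 95th percentile, and at 0 and 3 within 100 bp of the summit with the threshold of that wider window, against 1 and 8. The uniqueness of beta exons was 92.5% with words of 36 bases, against 96.3%. No paired analysis was possible because only 1 CTCF library per condition was analysed. Pileups under about 30 fragments have wide intervals, and the counts of peaks in 1 list alone depend on where each list ends. The causes of these changes were not tested.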
